A study of Mus musculus with 4 samples.

Results

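Haemoglobin and red cell genes were followed in RNA of mouse embryonic stomach at E15.5. The 9 genes were chosen by symbol from the 51098 rows of the gene table: 7 globin genes (Hba-a1, Hba-a2, Hba-x, Hbb-bs, Hbb-bt, Hbb-bh1 and Hbb-y), the haem synthesis gene Alas2 and the red cell membrane gene Slc4a1, and all 9 had a row. The study compared stomachs of genotype Fgf9LacZ/LacZ (called Fgf9_null here, 2 samples) with stomachs of genotype Fgf9LacZ/+ (called Fgf9_het, 2 samples, abbreviated WT in the titles). Fgf9 encodes a secreted fibroblast growth factor, and by these genotypes every sample carried at least 1 LacZ allele. The samples of each group were numbered 2 and 3. Whether a sample was 1 embryo or a pool is not given in the sources used here, nor is the strain.

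Red cells of the mouse embryo come in successive waves. Primitive erythroblasts from the yolk sac make the embryonic chains zeta (Hba-x), epsilon-y (Hbb-y) and beta-h1 (Hbb-bh1) along with adult alpha chains, and their beta-like output turns from beta-h1 to epsilon-y as they mature in the circulation. Definitive red cells from the fetal liver make adult alpha chains (Hba-a1, Hba-a2) and adult beta chains (in the reference strain Hbb-bs and Hbb-bt; strains of another haplotype carry Hbb-b1 and Hbb-b2). Alas2 is the erythroid form of the first, rate-limiting enzyme of haem synthesis, and Slc4a1 encodes band 3, the anion exchanger of the red cell membrane.

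The columns of the table did not hold 4 separate libraries. Of genes whose counts in the pair summed to 10 or more, values agreed within 0.001 reads between the same-numbered columns of the 2 genotypes for 60.8% of 21487 genes (replicate 2) and 59.1% of 21788 genes (replicate 3). Of the 9 genes here, 4 had equal counts in those columns (Hba-x, Hbb-bh1, Hbb-y and Slc4a1). The widest gap was 7.38 reads, for Hba-a2 in replicate 3, where the exact Poisson 95% interval ran from 10441.7 to 10847.2 reads. In these genes the columns of 1 number differed by less than the noise of read sampling. They were treated as 1 sample per number, called library 2 and library 3. Column totals ran from 19269851 to 22713416 estimated counts, so that 1 count was worth 0.0440 to 0.0519 CPM (counts scaled to the column total). Fgf9 had 133 reads in library 2 and 131 in library 3 under both labels, which does not check the genotype, since part of the gene may still be transcribed from the LacZ allele. All 7 genes of the stomach list, such as the chymosin gene Cym and the stomach mesenchyme factor gene Barx1, were above 1 CPM in both libraries.

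The globin genes lie in 2 clusters. The alpha-like genes Hba-x, Hba-a1 and Hba-a2 span 20.9 kb of chromosome 11 on the plus strand (GRCm38, GENCODE M21), at 32276400 to 32278116, 32283511 to 32284465 and 32296489 to 32297298. The beta-like genes Hbb-bt, Hbb-bs, Hbb-bh1 and Hbb-y span 40.7 kb of chromosome 7 on the minus strand, at 103812524 to 103813996, 103826534 to 103828096, 103841637 to 103843164 and 103851749 to 103853216. Each of the 7 is a protein-coding gene with 3 coding exons. Alas2 lies on chromosome X (150547375 to 150570638, plus strand), and Slc4a1 on chromosome 11 (102348824 to 102366203, minus strand).

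The adult copies are almost the same sequence, which bears on the adult globin counts. Over 429 coding bases, Hba-a1 and Hba-a2 differ at 1 position, C381T (positions counted from the A of the start codon, the first gene's base first). Over 444 coding bases, Hbb-bs and Hbb-bt also differ at 1 position, C417T. The stretches around both positions are shown because they hold the only coding letter that separates each pair. Hba-a1 is read at chr11:32284313-32284373, Hba-a2 at chr11:32297130-32297190, Hbb-bs at chr7:103826665-103826722 and Hbb-bt at chr7:103812656-103812713, each 5′ to 3′ on the gene's strand, with the differing base in capitals.
Hba-a1: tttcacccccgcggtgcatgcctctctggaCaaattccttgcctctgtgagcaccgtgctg
Hba-a2: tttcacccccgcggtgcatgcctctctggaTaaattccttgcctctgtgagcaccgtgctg
Hbb-bs: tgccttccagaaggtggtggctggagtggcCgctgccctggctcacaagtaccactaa
Hbb-bt: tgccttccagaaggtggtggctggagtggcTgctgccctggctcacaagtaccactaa

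The embryonic genes are far from the adult ones over the same coding positions. Capitals in the next lines mark bases that differ from Hba-a1 (for Hba-x, chr11:32277930-32277990) or from Hbb-bs (for Hbb-y, chr7:103851874-103851931, and Hbb-bh1, chr7:103841752-103841809).
Hba-x: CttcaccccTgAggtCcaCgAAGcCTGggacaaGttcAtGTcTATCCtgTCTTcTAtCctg
Hbb-y: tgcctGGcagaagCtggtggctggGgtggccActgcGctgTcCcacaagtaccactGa
Hbb-bh1: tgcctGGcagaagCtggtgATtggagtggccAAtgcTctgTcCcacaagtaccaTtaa
Within these stretches Hba-x differs at 27 of 61 positions, Hbb-y at 9 of 58 and Hbb-bh1 at 11 of 58. Over the whole coding sequence the identity was 62.0% between Hba-x and Hba-a1, 74.3% between Hbb-y and Hbb-bs and 74.1% between Hbb-bh1 and Hbb-bs.

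Shared sequence was also counted over the principal transcript of each gene. It was the part of its stretches of 31 bases that occurs, on either strand, in a transcript of another gene. Hba-a2 shared 91.0% of its stretches and Hba-a1 71.4%, nearly all with each other and a few with the pseudogene Hba-ps4. Hbb-bs shared 66.9% and Hbb-bt 59.4%, with each other alone. Hba-x, Hbb-bh1, Hbb-y and Slc4a1 shared none, and Alas2 shared 15.6%, most of it with the neighbouring gene Apex2. The 4 genes with no shared stretch were the same 4 whose counts were equal between same-numbered columns. Counts of the embryonic chains and of Slc4a1 can therefore be assigned to 1 gene at this length, while the division of reads within each adult pair is uncertain and the pair's sum is given beside it.

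**Figure D1:**
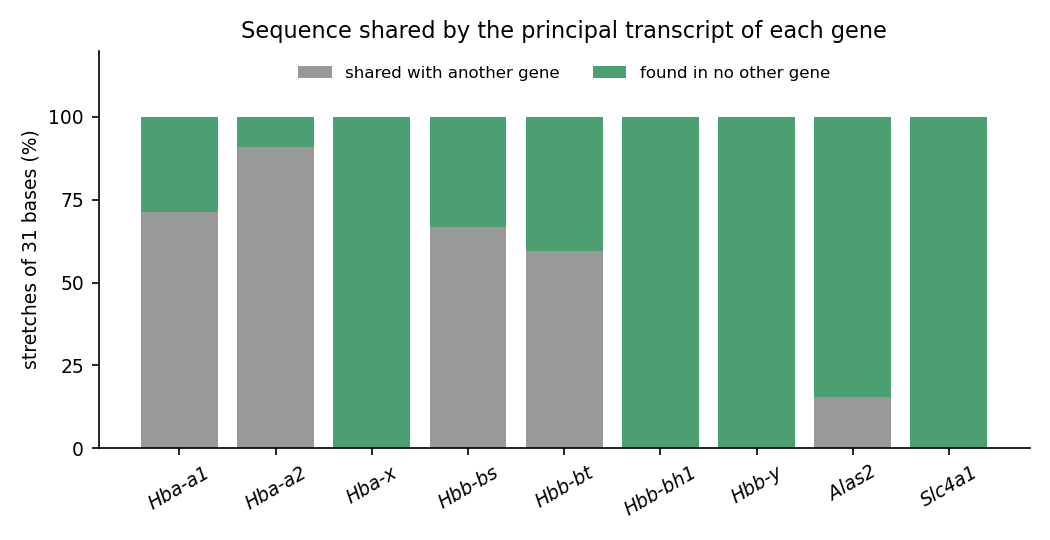
Share of the 31-base stretches of each gene's principal transcript (vertical axis, %) that occur, on either strand, in a transcript of another gene (grey) or in none (green). Grey reaches 91.0% in Hba-a2 and is absent in Hba-x, Hbb-bh1, Hbb-y and Slc4a1.

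Adult globin genes were among the most abundant messenger RNAs of the stomach per unit of length. Hba-a1 reached 438 CPM in library 2 and 495 in library 3, a mean of 466 ± 40.3 CPM (SD, n = 2 libraries, as for all means below). Hba-a2 had 276 and 472 CPM, a mean of 374 ± 138 CPM. Hba-a1 had 1.59 times the reads of Hba-a2 in library 2 and 1.05 times in library 3. Per kb of transcript, Hba-a1 was the higher in library 2 (626 against 498 CPM per kb) and Hba-a2 in library 3 (851 against 708). Summed over the pair, the level was 714 CPM in library 2 and 966 CPM in library 3. In bulk tissue, fewer red cells and less globin RNA per cell cannot be told apart.

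Of the adult beta genes, Hbb-bs stood at 345 CPM in library 2 and 483 in library 3, a mean of 414 ± 97.9 CPM. Hbb-bt had 67.2 and 103 CPM, a mean of 85.3 ± 25.6 CPM. Per kb, Hbb-bs was above Hbb-bt in both libraries (549 against 95.6 and 770 against 147 CPM per kb). Summed over the pair, the level was 412 CPM in library 2 and 587 CPM in library 3. Hbb-bt was assigned 16.3% and 17.6% of the pair's reads, with exact binomial 95% intervals of 15.49 to 17.12% and 17.0 to 18.3%. These intervals, like all Poisson and binomial intervals here, cover counting error only. They leave out the uncertain division of shared reads within the pair. The strain, and with it the adult beta haplotype, is not known either.

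The embryonic alpha-like gene Hba-x had 47 reads in library 2 and 121 reads in library 3, or 2.42 and 5.36 CPM. The embryonic beta-like gene Hbb-y had 97 and 146 reads, or 5.0 and 6.47 CPM. Hbb-bh1, the other embryonic beta-like gene, had 0 reads in library 2 and 2 reads in library 3. A count of 0 allows up to 3 reads, which is 0.155 CPM in library 2, and the 2 reads of library 3 lie under that floor as well. Of the embryonic genes, Hba-x and Hbb-y were thus detected in both libraries and Hbb-bh1 was at or under the floor in both.

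Outside the globins, Alas2 had 292 reads in library 2 and 412 in library 3, or 15.1 and 18.2 CPM. Slc4a1 had 142 and 235 reads, or 7.32 and 10.4 CPM. Both were higher in library 3 than in library 2.

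**Figure D2:**
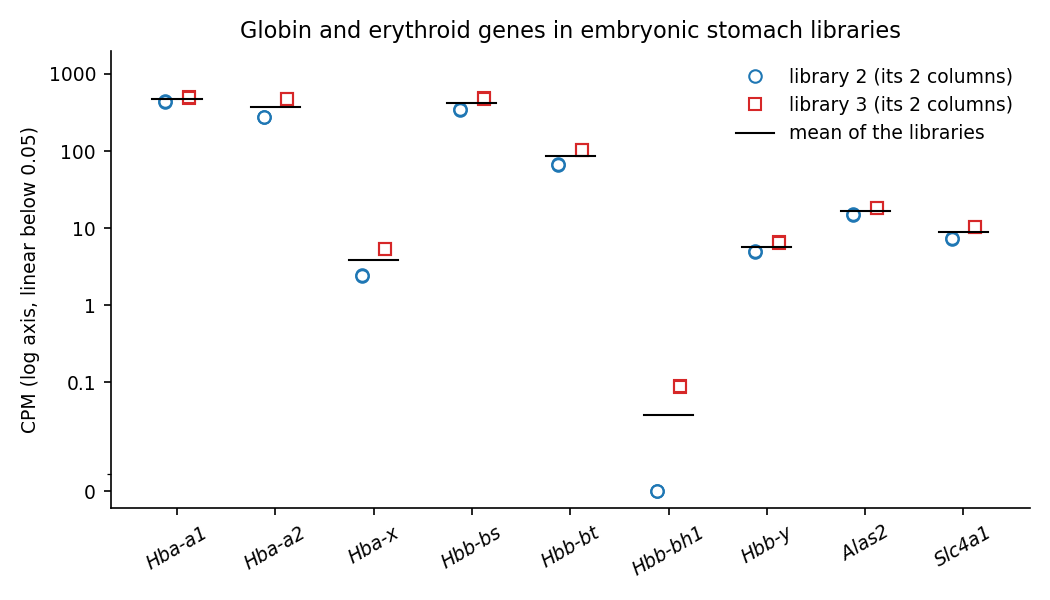
CPM (vertical axis, logarithmic above 0.05) of the 9 genes in library 2 (blue circles, its columns under both labels) and library 3 (red squares), with the mean of the libraries as a bar. The columns of a library lie on each other, and library 3 lies above library 2 for all 9 genes.

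Levels of different genes were compared per kb of principal transcript. Hba-a2 had 675 ± 250 CPM per kb, Hba-a1 667 ± 57.6 and Hbb-bs 660 ± 156, so that these 3 did not differ beyond their spread. They ranked 33, 34 and 35 among 21755 protein-coding genes on this scale. Hbb-bt followed at 121 ± 36.4 CPM per kb and rank 291. Hbb-y (9.06 ± 1.64 CPM per kb) and Alas2 (8.17 ± 1.10) overlapped between libraries and came next. Below them stood Hba-x (4.86 ± 2.59 CPM per kb) and Slc4a1 (1.95 ± 0.481), on these lengths each without overlap with its neighbours in this order. The annotated transcripts of Hba-a1 and Hba-a2 are 699 and 554 bases long, so the order within this pair rests on the gene models as well as on the reads. For Hba-x, all 113 bases before the start annotated by RefSeq lie in a GENCODE exon. Its place below Hbb-y and Alas2 therefore rests on the gene model too.

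The embryonic chains made up a small share of the globin reads. Hba-x, Hbb-bh1 and Hbb-y together held 144 of 21989 globin reads in library 2 (0.655%, exact binomial 95% interval 0.553 to 0.771%) and 269 of 35323 in library 3 (0.762%, 0.674 to 0.858%). The intervals of the libraries overlapped. The mean share was 0.708 ± 0.0754%, and per kb the shares were 0.614% and 0.684%. Hbb-y made up a larger part of the beta-like reads than Hba-x of the alpha-like reads in both libraries. Hbb-y held 1.20% (0.973 to 1.46%) of beta-like reads in library 2 and 1.09% (0.921 to 1.28%) in library 3. Hba-x held 0.338% (0.249 to 0.450%) of alpha-like reads in library 2 and 0.552% (0.458 to 0.659%) in library 3. The intervals of Hba-x did not overlap between the libraries, while those of Hbb-y did. Hbb-bh1 held 0 of 8095 beta-like reads in library 2, where the floor of 3 reads is a share of 0.0371% and the exact binomial upper bound 0.0456%. In library 3 it held 2 of 13391 (0.0149%, 0.00181 to 0.0539%).

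**Figure D3:**
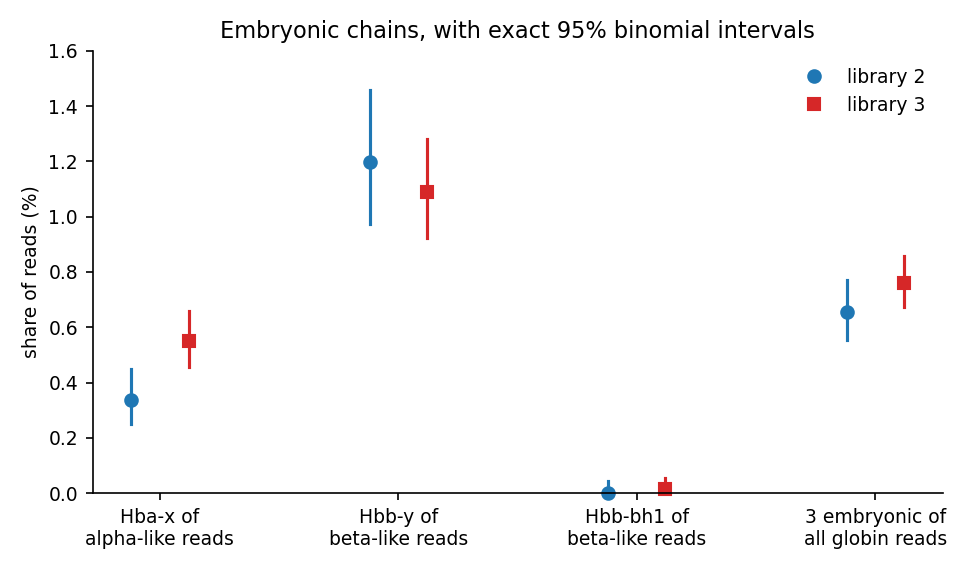
Share of reads (vertical axis, %) held by Hba-x among alpha-like reads, by Hbb-y and Hbb-bh1 among beta-like reads, and by the 3 embryonic genes among all globin reads, in library 2 (blue circles) and library 3 (red squares), with exact binomial 95% intervals as lines. Hbb-y lies near 1.1 to 1.2% in both libraries, and Hba-x at 0.338% in library 2 and 0.552% in library 3.

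Alpha-like reads outnumbered beta-like reads in both libraries. The ratio of alpha-like to beta-like reads was 1.72 in library 2 and 1.64 in library 3, and per kb it was 1.73 and 1.69. All 7 globin genes together held 0.113% of the counts in library 2 and 0.157% in library 3. Per kb, the globin sum was 241 and 278 times the level of Alas2, and 1106 and 1088 times that of Slc4a1.

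The sequence upstream of the genes was read for letters known to occur in globin promoters. RefSeq promoter entries (GRCm38.p6) were found for 7 of the 9 genes, all but Hbb-bh1 and Slc4a1. In the 250 bases before the RefSeq start, on either strand, GATAA (the core bound by GATA factors) and CACCC (a core bound by Klf factors) occurred in all 7, against 22.6% and 52.0% of 32851 promoters of that length. CCAAT occurred in 5 of 7, against 33.8% of promoters, and ATATAA in 5 of 7, against 9.10%. The letters were chosen because globin promoters are known to hold them, so these counts follow in part from the choice. Hbb-y held CATAAA (in 10.8% of promoters) and no ATATAA. The RefSeq starts differ from those of the GENCODE models used for lengths. Of the 113 bases before the RefSeq start, all lie in a GENCODE exon for Hba-a1 and Hba-x, 73 for Hbb-bt and 42 for Alas2. The genes shown next have 3 to 30 such bases. The 113 bases before the start are shown for Hba-a2 (chr11:32296379-32296491, plus strand), Hbb-bs (chr7:103827929-103828041, minus strand) and Hbb-y (chr7:103853208-103853320, minus strand), an adult alpha, an adult beta and an embryonic beta gene, with these letters in capitals.
Hba-a2: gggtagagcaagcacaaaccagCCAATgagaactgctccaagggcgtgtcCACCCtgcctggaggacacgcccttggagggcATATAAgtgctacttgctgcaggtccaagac
Hbb-bs: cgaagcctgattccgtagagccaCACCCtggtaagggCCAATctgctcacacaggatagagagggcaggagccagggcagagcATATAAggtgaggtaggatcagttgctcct
Hbb-y: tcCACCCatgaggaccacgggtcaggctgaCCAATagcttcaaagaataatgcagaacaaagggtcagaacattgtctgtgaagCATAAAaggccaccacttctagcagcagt
Within the printed bases, CCAAT stood before CACCC in Hba-a2 and after it in Hbb-bs and Hbb-y; Hba-a2 has another CACCC further upstream, before its CCAAT. The GATAA of these 3 genes lies further upstream than the letters printed. Hba-a1 and Hba-a2 were identical at 97.6% of aligned positions over the 250 bases, and Hbb-bs and Hbb-bt at 68.4%. The matches of Hba-a1 and Hba-a2 are thus not separate observations. A match is a description of the letters and not a bound site.

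The study's own contrast sets Fgf9_null stomachs against Fgf9_het stomachs. None of the 9 genes was called, and their levels under the 2 labels were almost equal. Alas2, the member with the widest fold between the labels, had 292 (library 2) and 411 (library 3) reads as Fgf9_null, and 292 and 413 as Fgf9_het. edgeR's quasi-likelihood test with Benjamini-Hochberg adjustment called 0 of 19987 genes (0%), with 4 genes at an unadjusted p under 0.05; DESeq2 called 3 genes and edgeR with the replicate number as a block 6, none of them a member. Of the members, 8 passed the filter on low counts, all but Hbb-bh1. Their log2 folds of Fgf9_null over Fgf9_het ran from -0.0036 to 0.00028 with standard errors of 0.111 to 0.629, and each had an edgeR adjusted p of 1. As both labels hold the same libraries, these values compare each library with itself and say nothing of an effect of Fgf9.

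What remains is the difference between the libraries, which were 1 sample each. It is described without a test, and the labels do not settle which genotype either library had. All 8 members at 1 CPM or more in both libraries were higher in library 3, where 45.8% of 16712 genes at that level were higher. Of the 8, 3 were above 1.5-fold (Hba-a2, Hba-x and Hbb-bt), against 1.36% of those genes. Summed over each adult pair, where division within the pair plays no part, the ratio was under 1.5 (1.35 for alpha, 1.42 for beta). Of the 3, only Hba-x was above that fold on reads that no other gene shares. The median ratio of library 3 to library 2 was 1.41 for the 8 members and 0.989 for all genes. Reads shared within the adult pairs make the ratios of the adult genes dependent on each other. Members were also chosen knowing that erythroid genes were higher in library 3, so these counts follow in part from the choice. The 8 members are not separate observations, being genes of 1 lineage read in 1 sample per library.

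The ratio differed more within the adult alpha pair than between the alpha and beta pair sums. It was 1.13 (95% counting interval 1.10 to 1.16) for Hba-a1 and 1.71 (1.65 to 1.77) for Hba-a2, the copies whose reads are hardest to divide. For their sum it was 1.35 (1.33 to 1.38), beside 1.42 (1.38 to 1.46) for the sum of Hbb-bs and Hbb-bt. The single beta genes were nearer each other, at 1.40 (1.36 to 1.44) for Hbb-bs and 1.54 (1.44 to 1.65) for Hbb-bt. Hba-x had the widest ratio, 2.21 (1.57 to 3.17), on reads that no other gene shares. Hbb-y had 1.29 (0.994 to 1.69), an interval that includes 1, Alas2 1.21 (1.04 to 1.41) and Slc4a1 1.42 (1.15 to 1.76). The interval of Hba-x lay wholly above that of the adult alpha sum, and that of Hbb-y contained the ratio of the adult beta sum.

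**Figure D4:**
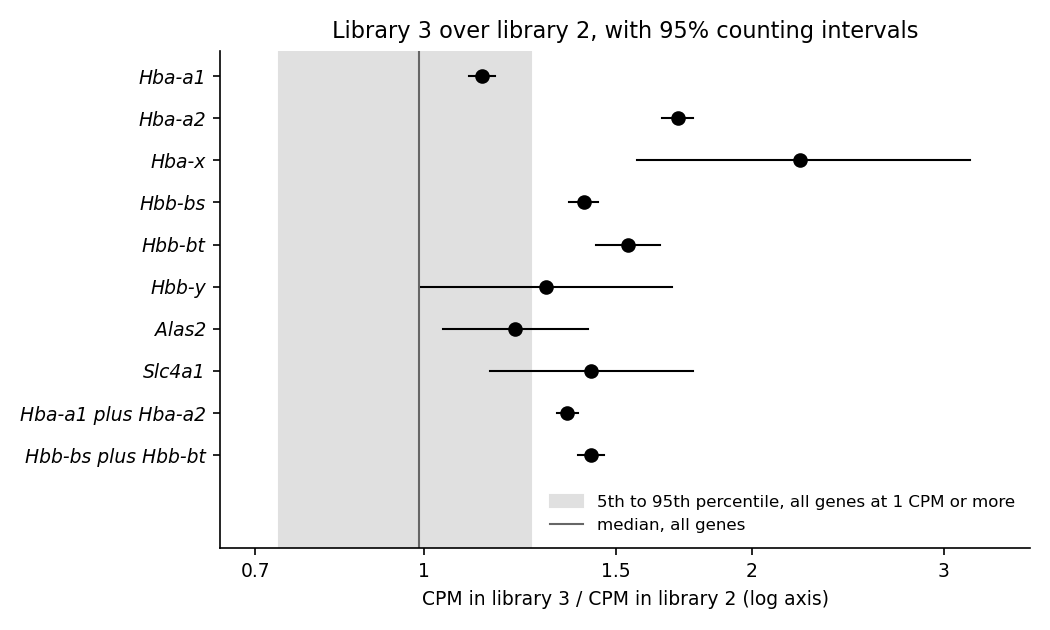
CPM in library 3 divided by CPM in library 2 (horizontal axis, logarithmic) for 8 genes and the adult pair sums, with 95% counting intervals as lines. The grey band spans the 5th to 95th percentile of 16712 genes, 0.736 to 1.25, and the vertical line is their median of 0.989; all but Hba-a1 and Alas2 lie to the right of the band.

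Markers of other cells were also compared between the libraries. Over all genes at 1 CPM or more in both, 45.8% were higher in library 3. Hepatocyte genes, from the organ where definitive red cells form at this age, summed to 35.7 CPM in library 2 and 60.1 CPM in library 3. None of the 8 was at 0, and all 4 that reached 1 CPM in both libraries were higher in library 3, by 1.21 (Apoa1) to 3.38 times (Afp), with Afp (alpha-fetoprotein) at 3.61 and 12.2 CPM and Alb (albumin) at 4.38 and 11.8 CPM. All 6 endothelial genes were higher there by 1.07 to 1.21 times, with sums of 297 and 341 CPM. Each of these ratios lay within the 5th to 95th percentile of all genes, 0.736 to 1.25. The 6 macrophage genes summed to 99.2 and 102 CPM with 4 higher in library 3, and the 6 megakaryocyte genes to 7.62 and 8.59 CPM with 1 of the 2 at 1 CPM higher. The 5 granulocyte genes summed to 2.38 and 1.20 CPM and none reached 1 CPM in both. The part of these cells in the globin difference was not tested.

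Of the other globin genes with a row, all but Cygb and Ngb were at or under the floor of 3 reads in both libraries. Hbq1a, a theta-globin gene beside Hba-a2, had 1 read in each library, and Hbq1b and Hbb-bh2 had none. The muscle globin gene Mb had 1 read in library 2 and none in library 3. Cytoglobin (Cygb), a globin of fibroblasts and related cells, stood at 10.2 CPM per kb and neuroglobin (Ngb) at 1.40, levels close to those of Hbb-y and Slc4a1.

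Haem synthesis and mitochondrial iron genes, most of which are not particular to red cells, were detected throughout. All 13 of this list, Alas2 among them, reached 1 CPM in both libraries. Of the 13, 7 were higher in library 3 (median ratio 1.02), beside 45.8% of all genes at that level (median 0.989). Per kb, Alad (the enzyme after Alas2 in the pathway) had 50.9 CPM, Tmem14c (a mitochondrial carrier of a haem precursor) 38.1 and Cpox, a later enzyme of the pathway, 15.3. Alas1, the form of the first enzyme in cells other than red cells, had 12.9 CPM per kb and was above Alas2 in both libraries (12.8 and 13.0 against 7.39 and 8.95 CPM per kb).

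Of 17 red cell membrane and skeleton genes, Slc4a1 among them, 11 reached 1 CPM in both libraries, 9 of these were higher in library 3 and the median ratio was 1.08. Among all genes at that level, 45.8% were higher, with a median ratio of 0.989. The list was led per kb by genes that other cells express too: Epb41 (protein 4.1) at 19.7, Gypc at 7.51, Dmtn at 5.77 and the water channel gene Aqp1 at 5.68 CPM per kb. The others ran down to 0.0465 CPM per kb for Rhag, with no gene at 0.

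Among 13 red cell cytosol and receptor genes with a row (Ahsp was not analysed here), 9 reached 1 CPM in both libraries and 6 of these were higher in library 3, with a median ratio of 1.01. Over all genes at that level, 45.8% were higher there. Prdx2, Car2 and Cat, which encode a peroxiredoxin, a carbonic anhydrase and catalase, stood at 82.7, 44.1 and 27.5 CPM per kb, and the transferrin receptor gene Tfrc at 18.8. Car1, another carbonic anhydrase gene, had no reads.

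Transcription factor genes of the red cell lineage all lay below the adult globins per kb. Gata1, the master regulator of the lineage, had 6 and 9 reads (0.309 and 0.399 CPM, a mean of 0.186 CPM per kb), and Klf1, an activator of adult beta globin, had 9 and 28 reads (0.464 and 1.24 CPM, 0.557 CPM per kb). The regulators that silence embryonic globins in definitive cells were higher, Bcl11a at 65.6 and 64.7 CPM (10.9 CPM per kb) and Sox6 at 24.0 and 19.1 CPM (2.61 CPM per kb), and both genes are also expressed in neurons or mesenchyme. The list was led per kb by Ldb1 (73.8), Zfpm1 (24.8) and Zbtb7a (18.1), followed by Bcl11a. Of its 12 genes 8 reached 1 CPM in both libraries, and 2 of those 8 were higher in library 3 (median ratio 0.987). Over all genes at that level, 45.8% were higher (median ratio 0.989). Gata1, Klf1, Gfi1b and Nfe2 fell short of 1 CPM in 1 or both libraries and were not counted. Their ratios were 1.29, 2.67, 2.01 and 0.764, on 3 to 28 reads in a library.

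**Figure D5:**
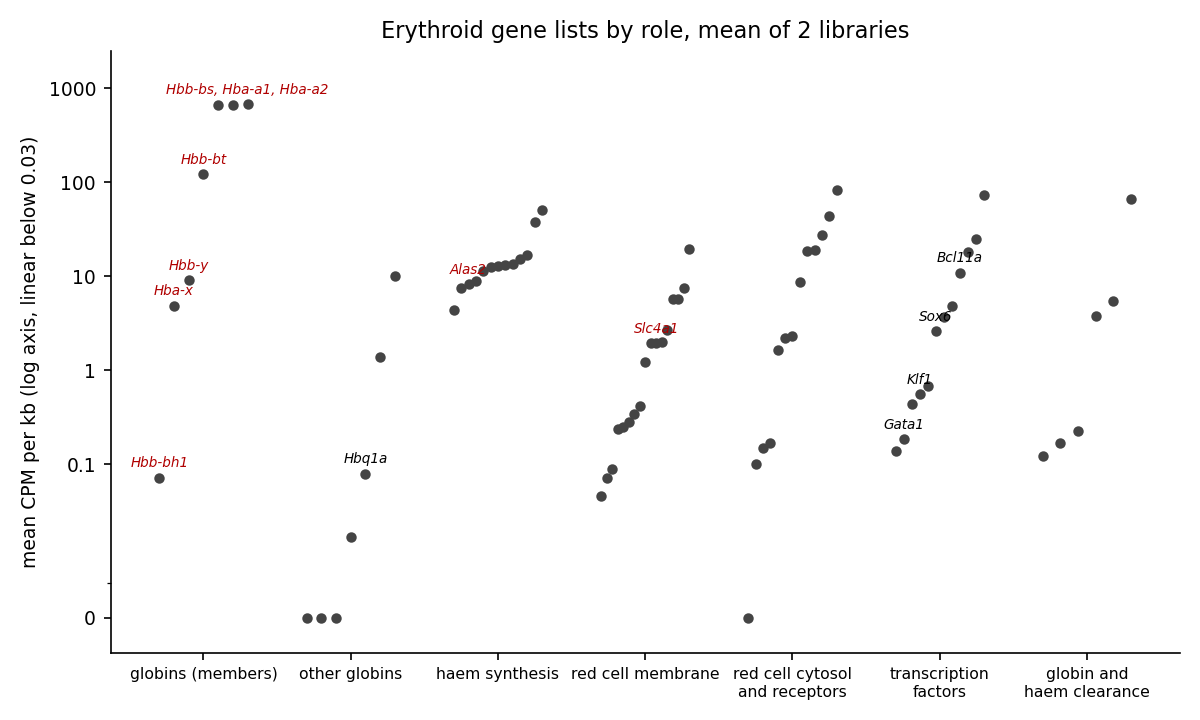
Mean CPM per kb over the libraries (vertical axis, logarithmic above 0.03) of each gene of 7 erythroid lists, 1 point a gene, ordered by level within a list. The adult globin genes lie above every gene of the other lists, at 121 CPM per kb or more, whereas Gata1 and Klf1 lie below 1.

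Genes that clear globin and haem were led by the broadly expressed receptor gene Lrp1, at 66.6 CPM per kb. Blvra (5.40) and Hmox1 (3.77), which encode enzymes of the haem breakdown pathway, followed, and Hpx (0.227), the gene of the plasma haem carrier haemopexin, was low. Of these 6 genes 3 reached 1 CPM in both libraries, and 1 of them, Lrp1, was higher in library 3, beside 45.8% of all genes.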

How the data were processed

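Ribosomal RNA was removed from total RNA by an RNase H method and random-primed libraries were read as pairs, per the labels' protocols. Salmon 1.8.0, Trimmomatic 0.33, FastQC 0.10 and edgeR are named in the submitters' processing notes, with build GRCm38 (mm10) but no roles. The deposited values are unscaled estimated counts of each Ensembl gene (28.5 to 29.1% not whole); the sources used here give no index, annotation or strand setting. The table has 2 further columns without a name, which were not used. Whether each header stands over its own column is not settled.

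Columns were matched by title and grouped by genotype. Across genes, columns of the same number deviated together from the group means (r = 0.999), so the numbers pair columns of 1 library, and their mean CPM was used. The p-values reflect spread between columns, not embryos. Rounded counts were tested with edgeR 4.0.16 (TMM, filterByExpr, quasi-likelihood, adjusted p under 0.05) and DESeq2 1.42.0 in R 4.3.3. The edgeR script was tested on simulated data. Lengths are those of GENCODE M21 principal transcripts, in which 50870 of the 51098 rows were found. The stretch of 31 bases was chosen here. Intervals are exact, and the floor is 3 counts.

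The text names Fgf9, the 9 members, and of each erythroid list the 4 genes highest per kb plus 7 regulators and minor globins; 1 gene so chosen is not reported here. Afp, Alb, Apoa1, Cym, Barx1, Car1, Rhag, Hbb-bh2, Gfi1b and Nfe2 were named after their values were seen. Members and lists were chosen with earlier results of these data known, among them that erythroid genes were higher in library 3.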

Additional observations from a re-analysis of the deposited data

How the results depend on the processing

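The count of genes called between the labels, 0 by edgeR, stayed at 0 with RLE factors and without a filter on low counts. It was 3 with DESeq2, 6 with a replicate block, in which every pair is 1 library, and 1 to 2 with a column left out, the lone column then being assumed to vary like the other group. None of the calls by DESeq2 or with the block was a member. Settings with all columns compare each library with itself, so this is no check of stability. With a column left out, the log2 folds of the 8 tested members ran from -0.71 to 0.71, because the remaining columns hold the libraries in unequal numbers. The summed level of the 9 members, 1375 CPM, was 1689 CPM when 7 abundant non-coding RNA genes were left out of the library size, and 1156 to 1594 CPM in a single library. Levels from the columns of 1 label alone were 0.992 to 1.008 times those reported. The embryonic share of globin reads was 0.655 to 0.762% with 1 library left out, a setting chosen after seeing the data, as was the same for levels. The ratio of library 3 to library 2 for the summed members, 1.38, was 1.41 with TMM sizes. All 8 members stayed higher in library 3 under the 4 other scalings or column choices, at 1.12 to 2.26 times. The columns of 1 label hold the same libraries. Each other scaling multiplied all ratios by 1 factor, 1.02 with TMM sizes and 0.993 without the non-coding genes, while the lowest ratio was 1.13. These settings could therefore not have lowered any of the 8 below 1. Depth limits Hbb-bh1, Gata1 and other genes near the floor, and 2 libraries limit every comparison.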
